A study of Mus musculus and Bos taurus with 2 samples.

Results

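The genes described here encode translation initiation factors and proteins that carry their names. They were chosen by symbol: every gene whose name begins, in either letter case, with Eif and a digit from 1 to 6, and that had at least 1 sense model. A sense model is a transcript model on the strand of the gene that matches a reference transcript exactly, is contained in it or contains it, retains its introns, shares a splice junction with it or overlaps its exons in another way. The rule gave 56 of 14090 named genes in the mouse library and 51 of 13374 in the bovine library, or 60 symbols in all. These genes had 143 of the 31354 mouse sense models and 123 of the 33163 bovine sense models.

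The data are transcript models assembled from nanopore long reads of cDNA, with 1 library per species and both libraries in batch 1 per the labels. The mouse library came from late 2-cell embryos, made by in vitro fertilization of oocytes from superovulated Slc:ICR mice, grown in KSOM medium and collected at 36 h. The bovine library came from 8-cell to 16-cell embryos at 72 h after insemination; the oocytes came from Japanese Black or Japanese Black × Holstein F1 cattle, were matured in vitro and were fertilized with sperm of a Japanese Black bull. Each library pooled about 200 embryos, carried polyadenylated RNA, was amplified with 14 PCR cycles and was read on its own R10.4.1 flow cell. The comparison of the libraries asks which forms of each gene were assembled at these stages. Species, stage, hours and reference annotation differed together and cannot be told apart, and no value has a replicate error.

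In the scanning model of initiation, eIF2 brings the initiator tRNA to the small ribosomal subunit, eIF3 and the scanning factors hold the complex on the mRNA, and the cap-binding complex of eIF4E, eIF4G and the helicase eIF4A loads it at the cap. The exchange factor eIF2B recharges eIF2 with GTP, and eIF2 kinases and eIF4E-binding proteins restrain the pathway. Early embryos depend on stored maternal mRNAs, so their protein synthesis is set to a large extent by translation, and vertebrate oocytes carry an eIF4E form of their own, eIF4E1B.

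The deposited models come without any count of reads: how deeply a gene was read is unknown, and a missing gene is one that was not assembled, whatever its expression. The labelled stages were checked against marker genes: 9 of 9 markers of mouse 2-cell embryos had models in the mouse library, and 6 of 6 genes of bovine genome activation had models in the bovine library. All 6 oocyte markers had models in both libraries. Among markers of other cells, 4 of 9 cumulus or granulosa genes had models in each library, and 2 of 6 sperm genes in mouse and 3 of 6 in bovine. Of the blood genes, 1 of 5 had models in mouse and 4 of 5 in bovine. Genes were looked up by symbol, and the globin symbols Hba and Hbb were found in bovine only. Mouse globin genes under other symbols would be missed, so the blood counts of the libraries cannot be compared. The part of such cells in the models below was not tested.

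Nearly the whole named set was assembled in mouse. Of 56 protein-coding genes in the mouse reference table with such a name, 54 had a sense model, against 53.5% of all protein-coding genes. Eif2ak2, the kinase that responds to double-stranded RNA, and Eif4ebp3, an eIF4E-binding protein, had none. Among 11 genes listed as pseudogenes with such a name, Eif4a-ps4 and Eif4a3l2 had a model (2 of 11). The share over all listed pseudogenes is not given here. The symbols found in both libraries numbered 47. The 9 found only in mouse were Eif1a, Eif2s3x, Eif2s3y, Eif3c, Eif3j1, Eif3j2, Eif4a-ps4, Eif4a3l1 and Eif4a3l2, and the 4 found only in bovine were EIF2S3, EIF3CL, EIF3J and EIF4EBP3. Several of these are the same factor under another symbol, such as bovine EIF2S3 and mouse Eif2s3x, which both encode the gamma subunit of eIF2.

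The members had a median of 2 sense models each in mouse and 2 in bovine, as had all named genes of each library. A lone model was found for 24 mouse members (48.8% of all named genes) and 19 bovine members (42.1% of all named genes). Exact matches have the same introns as a reference transcript. They numbered 107 of 143 mouse models (74.8%, exact Clopper-Pearson 95% interval 66.9% to 81.7%), against 55.4% of all mouse sense models. In bovine they numbered 82 of 123 models (66.7%, 57.6% to 74.9%), against 44% of all bovine sense models. These intervals cover counting error only and treat models as independent, although models of 1 gene share reads. At least 1 exact match was found for 54 of 56 mouse members (72.5% of all named genes) and for 46 of 51 bovine members (65.5% of all named genes). No exact match was assembled for Eif3j1 and Eif4g3 in mouse, or for EIF2AK4, EIF3B, EIF4E1B, EIF4EBP3 and EIF4G3 in bovine. Each of the 143 mouse and 123 bovine models had an intron chain of its own within its gene.

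**Figure D1:**
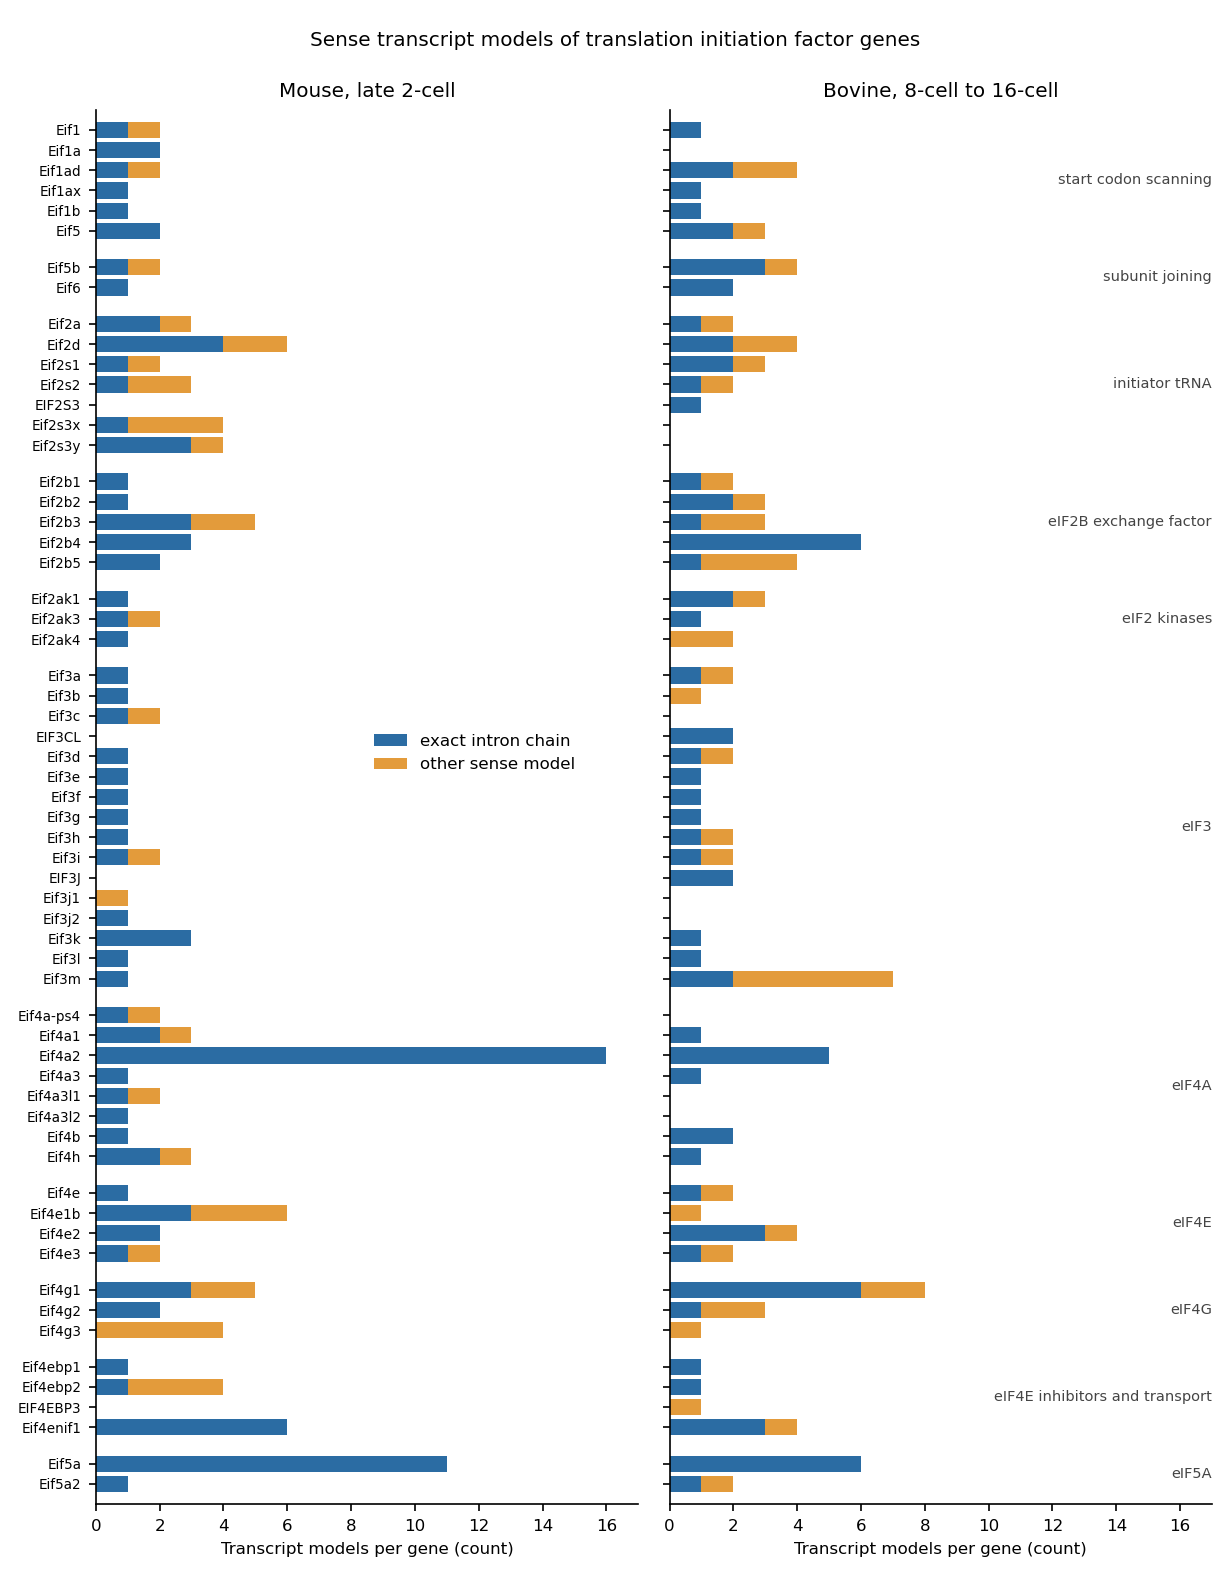
Sense transcript models per gene (count), mouse left and bovine right, with genes grouped by role; blue is exact intron chains and orange other sense models. Eif4a2 (16 models in mouse, 5 in bovine) and Eif5a (11 in mouse, 6 in bovine) have the longest mouse bars, both wholly exact, and EIF4G1 (8) and EIF3M (7) the longest bovine bars.

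The group of start codon scanning factors had 10 models of 6 genes in mouse and 10 of 5 genes in bovine. These counts include Eif1ad, described below, which was not classed as an initiation factor proper. Eif1, which guards start codon selection, had 2 models in mouse and 1 in bovine, and the second mouse model ended in an unannotated 21-bp last exon, 933 bp past the exact match. Eif1ax, which encodes eIF1A, had 1 exact model of 7 exons in each species. Its mouse relative Eif1a had 2 exact models of 3 exons, and no bovine model carried that symbol. Eif1b, a close relative of Eif1, had 1 exact 4-exon model in each. Eif5, which triggers GTP hydrolysis by eIF2, had 2 exact models in mouse and 3 models in bovine, 2 of them exact, and all exact models had 12 exons.

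Eif1ad, named for its eIF1A-like domain, had 2 models in mouse and 4 in bovine. A mouse model of 5 exons started 329 bp before any annotated start. A bovine model of 8 exons started 1974 bp upstream of the outermost exact match. Its first exon of 532 bp overlapped no exon of an exact match on its strand. The mouse model lengthened the first exon of the exact match, and the bovine model had a separate first exon, so the forms are unlike. The mouse distance is from GENCODE starts and the bovine one from exact matches of the library. Among the subunit-joining factors, Eif5b, the GTPase that joins the ribosomal subunits, had 2 models in mouse and 4 in bovine, with 24 exons in every exact match. Eif6, which keeps the large subunit apart, had 1 exact model of 6 exons in mouse and 2 of 7 exons in bovine.

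The initiator tRNA group, which is the eIF2 subunits with Eif2a and Eif2d, had 22 mouse models, of which 12 were exact. It held 4 of the 5 mouse models with an unannotated first exon, a call defined below. Those 5 were 15.2% of the 33 inexact member models asked, below the 28.3% over all mouse genes. Eif2s1, the alpha subunit and the target of the eIF2 kinases, had 2 models in mouse and 3 in bovine, and Eif2s2, the beta subunit, had 3 and 2. All 5 mouse models of these 2 genes held a whole annotated coding sequence. The gamma subunit has an X-linked and a Y-linked gene in mouse. Eif2s3x had 4 models, of which 1 was exact with 12 exons, and Eif2s3y had 4, of which 3 were exact with 11 to 13 exons. Bovine EIF2S3 on the X chromosome had 1 exact model of 12 exons. The labels mention no sexing of the pooled embryos.

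Of the Eif2s3x models that were not exact, 2 started at the same base of chromosome X (mm10, position 94213982, minus strand), 1120 bp upstream of the outermost annotated start. Their first exons measured 1303 and 1983 bp and they had 12 and 13 exons. The last of the 3 began 87 bp inside the exact match, at the first base of its first intron, and its first exon of 565 bp overlapped no annotated exon. Each of the 3 shared 10 of the 11 annotated introns, all but the first, and none held a whole annotated coding sequence. The promoter windows of the X and Y genes, from RefSeq on GRCm38.p6, are shown because the 1303-bp first exon ended inside the X window. The X window is chrX:94212622-94212801 on the minus strand and the Y window chrY:1010445-1010624 on the plus strand, each from 150 bases before the RefSeq start to 30 after it. Capitals mark the first 6 bases of the intron that follows that exon.
Eif2s3x: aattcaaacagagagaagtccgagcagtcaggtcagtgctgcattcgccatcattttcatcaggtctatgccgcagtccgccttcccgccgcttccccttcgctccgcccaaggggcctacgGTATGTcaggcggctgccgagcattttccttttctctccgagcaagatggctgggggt
Eif2s3y: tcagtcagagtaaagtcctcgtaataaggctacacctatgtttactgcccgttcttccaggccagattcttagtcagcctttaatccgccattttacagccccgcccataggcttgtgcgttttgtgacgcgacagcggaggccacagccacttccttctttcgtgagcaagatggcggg
The letters GTATGT lie 28 bp upstream of the RefSeq start of Eif2s3x and are not in the printed Eif2s3y window. They occur on the same strand in 3.84% of all 32851 RefSeq promoter windows of 300 bases, and on either strand in 7.26%. The coding sequences of the X and Y genes were 86.3% identical over 1416 bases. Their first 60 bases (GENCODE M21; chrX:94212574-94212633, minus strand, and chrY:1010617-1010676, plus strand) show how the copies can be told apart, with capitals where the Y gene differs.
Eif2s3x coding: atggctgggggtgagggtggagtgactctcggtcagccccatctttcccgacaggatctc
Eif2s3y coding: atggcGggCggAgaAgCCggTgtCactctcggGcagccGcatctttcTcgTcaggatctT
They differ at 13 of 60 positions.

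Eif2a and Eif2d encode proteins that can deliver initiator tRNA without eIF2. Eif2a had 3 models in mouse and 2 in bovine. Its inexact mouse model, of 12 exons, began in an unannotated 318-bp exon. That exon began 12709 bp downstream of the outermost annotated start and 4750 bp upstream of the nearest one. Eif2d had 6 models in mouse, 4 of them exact with 14 or 15 exons, and 4 in bovine, 2 of them exact with 14 or 15 exons. Both inexact mouse models, of 7 and 8 exons, began at the same base (chr1:131162521, mm10, plus strand) in a shared unannotated exon of 497 bp. That base lay 9340 bp downstream of the outermost annotated start and 3858 bp upstream of the nearest one. Neither of these models held a whole coding sequence.

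The eIF2B subunits, encoded by Eif2b1 to Eif2b5, had 12 models in mouse and 18 in bovine. The counts were 1 in mouse and 2 in bovine for Eif2b1, 1 and 3 for Eif2b2, 5 and 3 for Eif2b3, 3 and 6 for Eif2b4, and 2 and 4 for Eif2b5. Only Eif2b3, of the gamma subunit, had more in mouse; 1 of its models began 399 bp upstream of the annotated start and another 46559 bp downstream. Eif2b4, of the delta subunit, had 3 exact models from 1 start position in mouse and 6 exact models from 4 in bovine. Both truncated EIF2B3 models, of 4 and 5 exons, ended well short of the exact end. Their last exons, of 344 and 218 bp, overlapped no exon of an exact match on their strand.

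A different eIF2 kinase was fragmentary in each library. Eif2ak1, the heme-regulated kinase, had 1 exact model of 15 exons in mouse and 3 models in bovine, 2 of them exact. Eif2ak3, the kinase of endoplasmic reticulum stress known as PERK, had an exact model of 3 exons and a model of 14 exons in mouse. The 14-exon model began 34314 bp downstream of the outermost annotated start, but 268 bp downstream of the nearest one. Neither of these mouse models held a whole coding sequence. Bovine EIF2AK3 had 1 exact model of 17 exons. For Eif2ak4, the amino acid sensor known as GCN2, the pattern was turned round: mouse had 1 exact model of 39 exons with a whole coding sequence, and bovine had 2 models of 9 exons each that were not exact and did not overlap.

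The eIF3 complex had the plainest set in mouse. Its 14 mouse genes had 18 models, of which 15 were exact, and 11 of the genes had a lone model. Its 13 bovine genes had 25 models, of which 15 were exact, and 6 genes had a lone model. Eif3e, Eif3f, Eif3g and Eif3l had 1 exact model in each species, with 13, 8, 11 and 13 exons in both. Eif3a, the largest scaffold subunit, had an exact model of 22 exons in each species and a second, 23-exon model in bovine. Eif3d, which can itself bind the cap of some mRNAs, had 1 model in mouse and 2 in bovine, with 15 exons in each exact match, and Eif3h had 1 and 2, with 8 exons in each. Eif3b, a core scaffold, had 19 exons in its lone model in each species, exact in mouse and joined by shared junctions in bovine. Eif3i had 2 models in each, and Eif3k had 3 in mouse and 1 in bovine. Mouse Eif3c had 2 models, and bovine EIF3CL, a gene of the same family, had 2, with 21 exons in every exact match.

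EIF3M, a subunit of the same complex, had the widest gap of any eIF3 gene: 1 exact model of 11 exons in mouse, against 7 models in bovine, 2 of them exact with 10 and 11 exons. Of the other bovine models, 2 ran 33641 bp past the end of the exact matches into a last exon of 420 bp that no exact match overlaps (chr15:63349517-63349936, bosTau9, plus strand). That exon lies within the span of models of CCDC73 on the opposite strand.

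The eIF3j subunit, which helps to dock the complex on the ribosome, has 2 genes in mouse. Eif3j2 had 1 exact model of a single 2419-bp exon. Eif3j1 had no exact match, and its lone model of 10 exons (chr2:122027705-122053631, mm10, plus strand) began 841 bp before any annotated start, kept all 7 annotated introns and held a whole coding sequence. Bovine EIF3J had 2 exact models of 8 exons. The coding sequences of the mouse pair were identical over all 783 aligned bases, and that of Eif3j2 had 6 more bases. The copy behind reads without introns, end sequence or those 6 bases is uncertain. The first exon of the Eif3j1 model, 681 bp long, overlapped no annotated exon and ended 195 bp upstream of the RefSeq start. That end is shown from the RefSeq window (chr2:122028360-122028509, GRCm38.p6, plus strand), with the first 6 intron bases in capitals.
Eif3j1: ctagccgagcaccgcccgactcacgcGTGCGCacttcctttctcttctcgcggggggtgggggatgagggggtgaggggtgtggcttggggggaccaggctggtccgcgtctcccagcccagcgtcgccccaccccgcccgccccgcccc
The intron began with GT and ended with AG, as did the other unannotated junction of the model. The 6 letters GTGCGC occur on the same strand in 7.41% of all RefSeq windows.

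**Figure D2:**
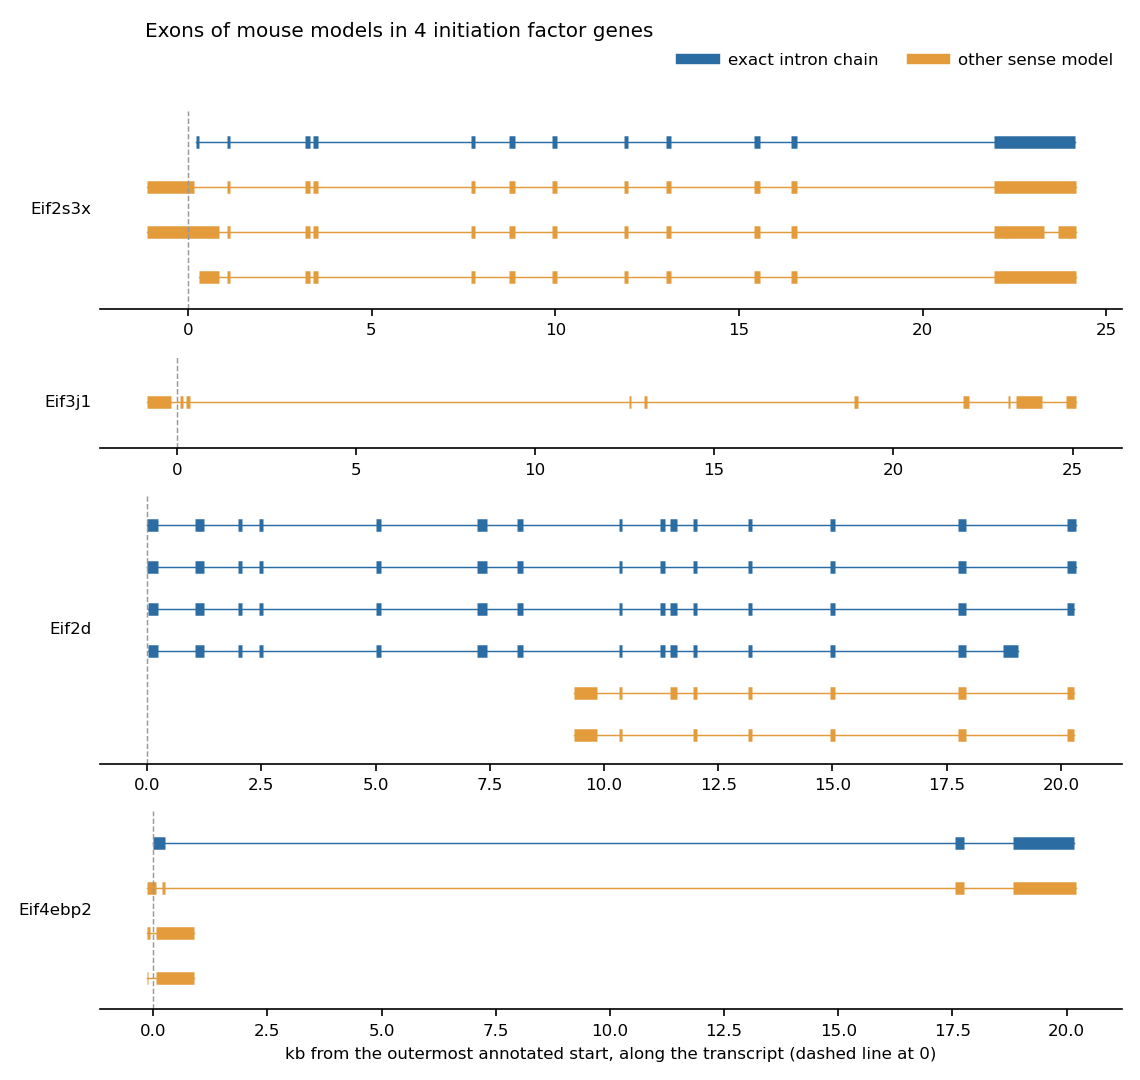
Exons (boxes) of every mouse sense model of 4 genes against distance from the outermost annotated start (kb, dashed line at 0), with exact intron chains in blue and other models in orange. Models of Eif2s3x, Eif3j1 and Eif4ebp2 begin 1120, 841 and 146 bp before the line, and 2 Eif2d models begin 9340 bp after it.

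The helicase group had the highest count of the whole set. Eif4a2, of the second cytoplasmic eIF4A, had 16 models in mouse and 5 in bovine, all of them exact. The 16 mouse models equal the 16 RefSeq transcripts of the gene in number, and each transcript was matched. They began at 4 bases within 295 bp of each other, and 7 held a whole GENCODE coding sequence. The 5 bovine models began at 3 bases. Eif4a1, the other cytoplasmic form, had 3 models in mouse and 1 in bovine, and Eif4a3, the helicase of the exon junction complex, had 1 exact 12-exon model in each. Eif4b and Eif4h, which stimulate the helicase, had 1 and 3 models in mouse, against 2 and 1 in bovine.

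Mouse also had models of 3 eIF4A copies whose symbols no bovine model carried. The exact models of Eif4a3l1 and Eif4a3l2, both on chromosome 6, had 2 exons and held whole coding sequences of GENCODE. RefSeq lists Eif4a3l2 as a pseudogene with no transcript, while GENCODE gives it a coding sequence under another symbol. A second Eif4a3l1 model ran 82626 bp past the exact end into an unannotated last exon of 170 bp. Over 1233 coding bases the first copy was 96.2% identical to Eif4a3 and the second 96.8%, and the copies were 98.5% identical to each other. Reads could be placed on either copy or on Eif4a3 by mistake, which was not tested. The exact model of Eif4a3 had 12 exons and those of the copies 2 each. The copy behind reads without introns or differing bases is uncertain. The first 60 coding bases (GENCODE M21, GRCm38; chr11:119299937-119299996, minus strand; chr6:136328543-136328602 and chr6:116551164-116551223, plus strand) are shown with capitals where a copy differs from Eif4a3.
Eif4a3: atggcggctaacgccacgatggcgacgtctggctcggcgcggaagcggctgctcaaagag
Eif4a3l1: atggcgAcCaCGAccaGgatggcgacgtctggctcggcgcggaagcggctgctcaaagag
Eif4a3l2: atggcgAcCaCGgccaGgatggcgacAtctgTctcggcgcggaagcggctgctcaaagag
The copies differ from Eif4a3 at 6 and 7 of these positions. Eif4a-ps4, a pseudogene without a coding sequence in GENCODE, had 1 exact model of 1 exon and another of 2 exons, whose intron of 793 bp began with AC.

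Among the cap-binding proteins, the oocyte form had the largest difference. Eif4e1b had 6 models in mouse, 3 of them exact, and 1 inexact model of 7 exons in bovine. The 6 mouse models (chr13, mm10, plus strand) began within 9 bp of each other, and the 3 exact ones held a whole coding sequence. Eif4e, the general cap-binding protein, had 1 exact model of 8 exons in mouse and 2 models in bovine. The exact bovine model had 7 exons, and the other began 648 bp downstream of its start. The 63-bp first exon of that other model overlapped no exon of an exact match on its strand. Eif4e2, a relative that represses translation of some mRNAs, had 2 models in mouse and 4 in bovine, and Eif4e3 had 2 in each. The coding sequences of Eif4e and Eif4e1b were 65.2% identical over 646 aligned bases.

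Of the scaffolds, Eif4g1 had 5 models in mouse and 8 in bovine. The exact ones had 32 or 33 exons in mouse and 31 to 33 in bovine. Both inexact mouse models, of 30 exons, began 4495 bp upstream of the exact matches, but 88 bp from an annotated GENCODE start. Eif4g2, a scaffold without an eIF4E-binding site, had 2 exact models in mouse, and 1 exact and 2 inexact models in bovine. The inexact bovine models shared a 284-bp first exon 1552 bp upstream of the exact match (chr15, bosTau9, plus strand). Eif4g3 had no exact match in either species: 4 mouse models of 11 to 30 exons began 64892 to 104223 bp downstream of the outermost annotated start, and the bovine model had 34 exons. RefSeq lists 56 transcripts of mouse Eif4g3, and none was matched.

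The restraints on eIF4E differed between genes. Eif4ebp1 had 1 exact model of 3 exons in each species, and Eif4ebp2 had 4 models in mouse and 1 exact 3-exon model in bovine. Bovine EIF4EBP3 had 1 model of 2 exons, contained in a reference transcript. Eif4enif1, which carries eIF4E to the nucleus and to granules of stored mRNA and is known for its part in oocytes, had 6 models in mouse, all exact, and 4 in bovine, 3 of them exact. The 6 mouse models began at 6 different bases over 676 bp, and all 6 held a whole coding sequence. Eif5a, whose hypusine-bearing product aids translation elongation, had 11 exact models in mouse from 8 start bases over 761 bp, and 6 exact models in bovine from 6 start bases. All 11 mouse models held a whole coding sequence. Its relative Eif5a2 had 1 model in mouse and 2 in bovine, and the coding sequences of the mouse pair were 72.8% identical over 459 aligned bases.

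The 3 inexact Eif4ebp2 models shared a first base 146 bp upstream of the outermost annotated start (chr10:61452807, mm10, minus strand) and each had 1 unannotated junction, of 122, 133 or 182 bp, with an end at position 61452594. The RefSeq window (chr10:61452640-61452819, GRCm38.p6, minus strand) is shown with that first base and the first 2 intron bases of the 182-bp and 133-bp junctions in capitals.
Eif4ebp2: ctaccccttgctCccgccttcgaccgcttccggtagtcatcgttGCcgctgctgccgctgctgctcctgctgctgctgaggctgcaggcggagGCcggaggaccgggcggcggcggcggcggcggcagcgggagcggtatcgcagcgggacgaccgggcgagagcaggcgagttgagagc
Both of these junctions began with GC and ended with CC, and the 122-bp junction began with CG and ended with AG. Splice sites usually read GT and AG. Across all mouse members, 41 junctions were not in GENCODE, of which 28 came from inexact models. Both ends could be read from annotated exons or promoter windows for 11 of the 28, in 7 genes. Of these 11, 7 read GT and AG and 4 did not: the 3 of Eif4ebp2 and a 3589-bp junction of a 384-bp Eif4e1b model, which read GA and AG. All 79 annotated junctions of the members that could be read in the same way began with GT or GC and ended with AG.

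Starts of the mouse models were set against GENCODE. Of 143 first bases, 121 lay within 100 bp of an annotated start of the gene (69.7% of all mouse sense models did). Among exact models 102 of 107 did (90.7% of all exact models), and among the others 19 of 36 (42.4% of all others). The median distance was 7 bp for the exact models and 94 bp for the others. Models that started over 100 bp upstream of every annotated start numbered 9, in 6 genes: 3 of Eif4ebp2, 2 of Eif2s3x, and 1 each of Eif1ad, Eif2b3, Eif3j1 and Eif4a3l2. The same count over all mouse genes is not given here, so 9 cannot be called many or few. The Eif4a3l2 model was exact against the reference used for the class and lay 970 bp upstream of the GENCODE start. First bases also fell on a RefSeq start to the base in 56 of 88 exact models of genes with a promoter window (63.6%; 66.9% over all named genes) and in 7 of 28 others (25%; 13.3% over all). For Eif5a this held for 5 of 8 first bases. The first base of an exact model was thus often that of a reference transcript; whether it was taken over from there was not tested.

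**Figure D3:**
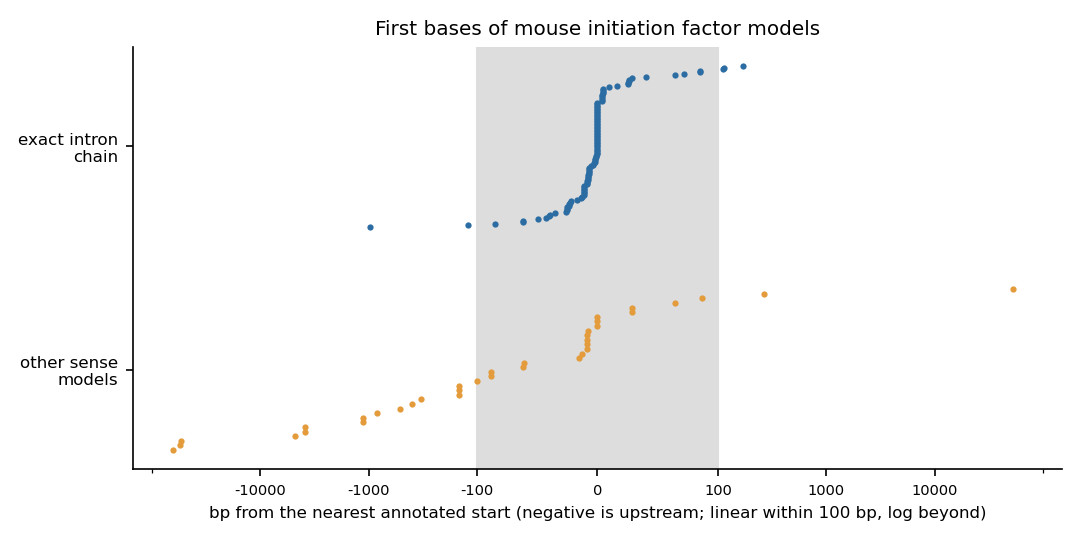
First bases of the 107 exact (blue) and 36 other (orange) mouse models by distance from the nearest annotated start (bp, negative upstream, linear within 100 bp and log beyond; each point is a model, sorted by distance). The exact models crowd at 0, with 102 inside the grey band of 100 bp, and 17 of the others lie outside it.

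A first exon was called unannotated when it overlapped no annotated exon on its strand; only spliced models that were not exact and had a splice site of the annotation were asked. With GENCODE and the exact matches of the library as annotation, 5 of 33 such mouse models had one (15.2%, exact interval 5.11% to 31.9%; 28.3% over all mouse genes). They belonged to 4 genes: Eif2d with 2, and Eif2a, Eif2s3x and Eif3j1 with 1 each. With the exact matches alone as annotation, which is the only rule that both libraries allow here, the counts were 7 of 27 in mouse (25.9%, 11.1% to 46.3%; 33.7% over all mouse genes) and 4 of 33 in bovine (12.1%, 3.4% to 28.2%; 26.2% over all bovine genes). The bovine models were 2 of EIF4G2 and 1 each of EIF1AD and EIF4E. Unannotated last exons, by the same exact-match rule, were found in 4 of 27 mouse models (13.4% over all mouse genes) and 5 of 33 bovine models (19.7% over all bovine genes). The mouse models were of Eif1, Eif2b3, Eif4a3l1 and Eif4h, and the bovine ones were 1 of EIF3H, 2 of EIF3M and 2 of EIF2B3. With GENCODE added as annotation the mouse count was 3 of 33, without Eif2b3 (8.79% over all mouse genes).

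Most mouse members had a model with the whole coding sequence. A model that held a complete annotated coding sequence with its introns was found for 53 of 55 coding members (75.8% of all coding genes). Eif2ak3 and Eif4g3 lacked one. By model, 86 of 106 exact models held a whole coding sequence (76.3% of all exact models of coding genes), and 9 of 35 others did (17.2% of all others). The inexact models with a whole coding sequence were spread over Eif1, Eif2s1, Eif2s2 with 2, Eif3c, Eif3j1, Eif4a3l1, Eif4e3 and Eif4g1.

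Genes with more annotated transcripts had more models. Over the 54 mouse members with RefSeq transcripts, the number of transcripts and the number of models had a Spearman correlation of 0.65 across genes, given as a description, against 0.36 over 13325 named genes. Genes are not independent replicates, and exact matches take the reference into account by definition. Every RefSeq transcript was matched exactly in 33 of 54 members (29.4% of all named genes). Of the 54 members, 25 had a single RefSeq transcript. At least 3 transcripts were listed for 17 of the 54, against 6950 of the 13325 named genes. Among those 17 members, every transcript was matched for 2, Eif4a2 with 16 of 16 and Eif2b4 with 3 of 3 (4.19% of all such genes). The match was 11 of 12 for Eif5a, 3 of 4 for Eif2b3 and Eif3k, 6 of 9 for Eif4enif1, 3 of 9 for Eif4e1b, 4 of 13 for Eif2d, 2 of 9 for Eif4e2, 3 of 14 for Eif2s3y and 3 of 19 for Eif4g1. It was 1 of 3 for Eif4ebp2, 1 of 4 for Eif2ak3, Eif4e and Eif4e3, 1 of 7 for Eif2ak4 and 0 of 56 for Eif4g3.

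**Figure D4:**
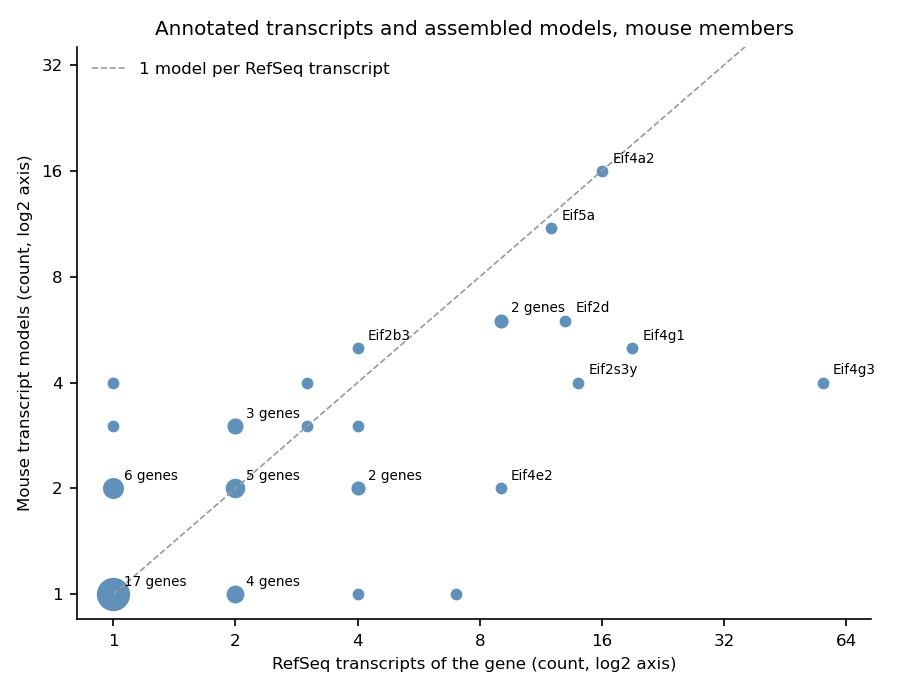
RefSeq transcripts (count, log2 axis) against mouse transcript models (count, log2 axis) for 54 members; a larger point stands for several genes, and the dashed line marks 1 model per RefSeq transcript. Eif4a2 lies on the line at 16, Eif5a just under it at 12 transcripts and 11 models, and Eif4g3 far to the right at 56 transcripts and 4 models.

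The 47 symbols found in both libraries had 124 models in mouse and 117 in bovine. At least 2 times as many models in mouse as in bovine were found for 9 of them (23.5% of all 8466 shared symbols). The counts, in mouse and then in bovine, were Eif4a2 with 16 and 5, Eif4e1b with 6 and 1, Eif4ebp2 and Eif4g3 with 4 and 1, Eif3k, Eif4a1 and Eif4h with 3 and 1, and Eif1 and Eif2ak3 with 2 and 1. The opposite was found for 17 (29.9% of all shared symbols). In the same order, Eif3m had 1 and 7, Eif2ak1 and Eif2b2 had 1 and 3, and Eif2b4 had 3 and 6. Eif1ad, Eif2b5, Eif4e2 and Eif5b had 2 and 4, and Eif2ak4, Eif2b1, Eif3a, Eif3d, Eif3h, Eif4b, Eif4e, Eif5a2 and Eif6 had 1 and 2. The number was the same for 11 (27.6% of all shared symbols) and differed by less than 2 times for the remaining 10. These counts are 19.1%, 36.2% and 23.4% of the 47 symbols. With at least 3 times as many required, 7 symbols had more in mouse and 3 more in bovine, and with 1 library per species no difference was tested.

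The exon count of the exact matches was shared between the species for 39 of the 43 symbols with an exact match in both (91.7% of all such symbols). The exceptions were Eif2ak3 with 3 exons in mouse and 17 in bovine, Eif4e with 8 in mouse and 7 in bovine, Eif4e3 with 7 in mouse and 8 in bovine, and Eif6 with 6 in mouse and 7 in bovine.

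Promoter windows in RefSeq were matched for 43 mouse members, with 56 windows of 300 bases, and 3 short motifs were counted on either strand, without regard to overlap. GGGCGG, the core of the GC box, was in 71.4% of the windows, against 35.7% of all 32851 windows. CCAAT was in 28.6%, against 37.4% of all, and TATAAA in 7.14%, against 13.6% of all. Windows of 1 gene can overlap, and a match is a description of these letters.

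Other genes of translation were read from a list of 52 symbols outside these names, covering poly(A)-binding proteins, initiation regulators, elongation and release factors. Models were found for 49 in mouse (53.5% of all mouse protein-coding genes), with 153 in total and a median of 2. In bovine they were found for 48, with 163 and a median of 3, and no share over all bovine genes is given here. The highest count was 13 in mouse, for Gigyf2, a partner of Eif4e2, and 10 in bovine, for Mcts1, which helps recycle ribosomes, and Rptor, a subunit of mTOR complex 1. An exact match was found for 43 of the 49 in mouse (72.5% of all named genes) and 40 of the 48 in bovine (65.5% of all named genes). Dap5, an older name of Eif4g2, and Gigyf1 were found in neither library under those symbols. Mtrf1l had no model in mouse, and Gspt2 and Mcts2 had none in bovine.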

How the data were processed

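Transcript models from 2 long-read cDNA libraries, 1 mouse and 1 bovine, were analysed. The authors deposited 1 set of StringTie models per library, per the file headers, with start and end positions of transcripts and exons as the only values (no counts, coverage or score), a gene name, the closest reference transcript and a class code. Genome builds are mm10 and bosTau9, per the submitters' processing notes; the sources used here do not give the aligner, versions, filters or reference annotation. A filter or a merging step there would change the number of models per gene.

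Members, gene lists and alternatives were chosen with earlier results of these data known. Mouse models were set against GENCODE M21 on the same build and against RefSeq tables (GRCm38.p6); of the 56 mouse members, 54 matched a RefSeq gene with transcripts and 43 a promoter window. No bovine annotation was used here. Names follow this rule: every member is accounted for, with fuller values for those with the most models, no exact match, unannotated first exons or large differences between libraries, and for germ-cell and multicopy members. Start distances count along the transcript. Coding sequences of copies were aligned with Biopython 1.88. Counts and exact Clopper-Pearson intervals came from Python 3.11.15 and scipy 1.17.1, and figures from matplotlib 3.10.9. The functions that make the calls were tested on simulated data. With 1 library per species no test between groups was made.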

Additional observations from a re-analysis of the deposited data

Results flagged for a closer look

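Models under an initiation factor name that were not sense were left out of all counts above. The mouse library had 10 of them, which was over the limit of 3 that a count of 0 allows and so drew attention, and the bovine library had 2. They are no excess: they made up 6.54% of the 153 mouse models under these names, against 13.9% of mouse models under any gene name, and 1.6% of 125 in bovine, against 7.81%. Of the mouse models, 5 lay inside introns (of Eif4ebp2, Eif3j1, Eif2a, Eif2b3 and Eif3c, 3 of them with a single exon). On the opposite strand, 3 overlapped exons (2 at Eif2s3y and 1 at the pseudogene Eif3s6-ps4). The other 2 held a reference transcript within an intron, 1 under the name Eif4enif1 and 1 under that of the pseudogene Eif3s6-ps1. The longest was the 2-exon model at Eif3s6-ps1, with 3130 bp. The pair at Eif2s3y spanned the same bases (chrY:1034867-1037514, mm10, minus strand), with 1602 and 1222 bp. Of the bovine models, 1 lay inside an intron of EIF2B3 (3632 bp) and 1 on the strand opposite EIF2AK4 (2196 bp), each with a single exon. No control library was analysed here.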

How the results depend on the processing

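Counting only exact or shared-junction models, only exact models, intron chains, spliced models or factors proper moved the numbers of models, exact shares and genes with an exact match by no more than 1.5 times, or within the 95% interval, as did start limits of 50 and 500 bp and every other alternative not named here. With less than 50% of a first exon annotated as the criterion, unannotated first exons numbered 10 in mouse (5 in the report) and 9 in bovine (4 in the report). With at least 3 times as many models required, symbols with more in mouse numbered 7 instead of 9 and those with more in bovine 3 instead of 17, so the side with more symbols turned from bovine to mouse. With exact models left out, a choice made after seeing the data, 3 symbols instead of 9 had at least 2 times as many in mouse, and 1 instead of 17 in bovine. Only 12 of the 47 symbols have such models in both libraries, so this setting compares fewer genes by construction. The cause of the other shifts was not tested. No paired analysis was possible because each species had 1 library. Depth is unknown, since the models used here carry no read counts.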
